A study of Mus musculus with 12 samples.

Results

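A set of 10 microRNA (miRNA) precursors that are known from neurons and neuroendocrine cells were described in retina of diabetic mice. They are mmu-mir-128-1, mmu-mir-128-2, mmu-mir-138-1, mmu-mir-138-2, mmu-mir-137, mmu-mir-153, mmu-mir-218-1, mmu-mir-218-2, mmu-mir-7a-1 and mmu-mir-7a-2, written without the species prefix from here on. They were chosen by precursor name, and they are 10 of the 1532 precursors with reads in the series. Small RNAs were sequenced from db/db mouse retina; mutation of the leptin receptor makes these animals obese and diabetic. A group of 6 libraries came from db/db mice treated with Keluoxin, a Chinese herbal capsule, and the other 6 came from the group labelled model, taken here as db/db mice without Keluoxin. All 12 samples therefore share the db/db genotype, on a background labelled KsJ, and no mice without diabetes were analysed here. The sources used here give no age, dose or duration of treatment, and the labels do not say whether a library came from 1 mouse or from several. The source label names retina while the extraction protocol mentions exosomes, and the tissue follows the source label here. The number before BL in the strain label differs between samples and was left aside.

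A miRNA is cut from a hairpin precursor, whose left and right arms give the 5p and the 3p strand, and mostly 1 of the arms is kept and loaded into Argonaute. The bases just behind its first base, called the seed, pair with target mRNAs and lead to their repression. After it has been cut, the 3′ end of a miRNA can be trimmed or given extra bases by terminal transferases, so that reads of 1 arm differ at their ends. miR-128 is a brain-enriched miRNA that limits the excitability of neurons in mice. miR-138 restrains the size of dendritic spines in rat hippocampal neurons. miR-137 acts in the maturation of neurons, miR-153 in vesicle release, and miR-218 is a marker of motor neurons. miR-7 is abundant in neurons and endocrine cells, and in mammalian brain it is bound by the circular RNA Cdr1as, which miR-671 can cut.

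The mature sequences of the major arms are shown because the seeds set the families and because the results below concern the last bases. All 10 deposited precursors were equal to the RefSeq hairpins (GRCm38.p6), from which these sequences are taken, and capitals mark the seed, bases 2 to 8 from the 5′ end.
miR-7a-5p: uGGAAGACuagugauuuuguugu
miR-7b-5p: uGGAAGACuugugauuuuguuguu
miR-128-3p: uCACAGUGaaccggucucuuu
miR-218-5p: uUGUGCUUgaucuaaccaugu
miR-138-5p: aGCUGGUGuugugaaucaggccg
miR-153-3p: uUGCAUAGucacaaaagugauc
miR-137-3p: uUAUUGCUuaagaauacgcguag
miR-7b-5p, from a separate precursor that is not a member, has the same seed as miR-7a-5p. The seed of miR-218-5p is also that of miR-7002-3p, of which no arm was tested, and the other 4 seeds were each found in 1 mature miRNA of the RefSeq table.

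Coordinates are those of the GRCm38 assembly, and the host genes named are annotated on the precursor's strand. In introns lie mir-128-1 (R3hdm1, chromosome 1, 128202361 to 128202430), mir-128-2 (Arpp21, chromosome 9, 112118636 to 112118711, minus strand) and mir-7a-1 (Hnrnpk, chromosome 13, 58392779 to 58392886, minus strand). mir-218-1 lies in an intron of Slit2 (chromosome 5, 48223942 to 48224051) and mir-218-2 in an intron of Slit3 (chromosome 11, 35616816 to 35616925), both genes for secreted guidance ligands. mir-153 lies in an intron of Ptprn2 (chromosome 12, 117250817 to 117250885), which codes for a protein of dense-core vesicles. mir-138-1 overlaps an exon of the pseudogene Gm47135 (chromosome 9, 122682876 to 122682974), mir-138-2 an exon of the long noncoding RNA C78859 (chromosome 8, 94324311 to 94324381) and mir-137 an exon of the noncoding transcript Gm26871 (chromosome 3, 118433857 to 118433929). mir-7a-2 overlaps no other annotated gene (chromosome 7, 78888277 to 78888373).

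The libraries held 1933375 counted reads (Keluoxin replicate 5) to 7892147 (model replicate 3), and 62878432 in all. The members took 932250 of these, or 1.48%. The markers of neural retina were high in both groups, as the tissue label says. Photoreceptor arms (mir-182, mir-183, mir-96) summed to 188458 to 380499 normalized CPM (reads scaled to a common library size) in Keluoxin libraries and 352386 to 419671 in model libraries. Neuron arms (mir-124, mir-9) summed to 87123 to 119804 and 111918 to 129286 normalized CPM in Keluoxin and model libraries. In a principal component analysis, model replicate 1 stood on the side of the Keluoxin libraries on the first axis (52.2% of the variance), at 9.23, with the other model libraries between −31.8 and −8.77 and the Keluoxin libraries between 5.16 and 17.5.

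RefSeq names 16 mature arms of the 10 precursors, counting an arm that copies share once, and 14 of them had reads. No read fell on miR-128-2-5p or miR-218-2-3p. The filter on low counts kept 9 arms, and the 5 others had few reads: 60 for miR-138-1-3p, 58 for miR-7a-2-3p, 54 for miR-218-1-3p, 42 for miR-128-1-5p and 2 for miR-137-5p over the 12 libraries. The highest level of any of these 5 in a single library was 3.31 normalized CPM, for miR-218-1-3p in Keluoxin replicate 4. Arms that copies share cannot be split between them, so miR-7a-5p, miR-128-3p, miR-138-5p and miR-218-5p are each reported once for both copies.

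miR-7a-5p was by far the most abundant member and ranked 15th by mean level among annotated arms. It had 7816 (lowest), 14458 (median) and 16401 (highest) normalized CPM in Keluoxin libraries, against 11770, 13147 and 14827 in model libraries. The Keluoxin libraries spread on both sides of the model ones, with 3 above the highest and 2 below the lowest of them. The mean was 13333 ± 3604 in Keluoxin and 13077 ± 1084 in model (SD, n = 6 each), with a log2 fold change of 0.028 (SE 0.17, 95% interval −0.34 to 0.40, edgeR adjusted p = 0.917).

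miR-128-3p followed at 832, 913 and 1271 normalized CPM (lowest, median, highest) in Keluoxin libraries, against 732, 873 and 1619 in model libraries. The highest of all 12 values was model replicate 2, and the next model library had 955. The means were 997 ± 174 in Keluoxin and 981 ± 321 in model (SD, n = 6 each; log2 fold change 0.023, SE 0.19, edgeR adjusted p = 0.935). miR-218-5p had 489, 605 and 718 normalized CPM in Keluoxin libraries, against 561, 571 and 683 in model libraries. Its groups overlapped, and its log2 fold change was 0.028 (SE 0.10, 95% interval −0.20 to 0.25, edgeR adjusted p = 0.864), the narrowest interval among the members.

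miR-138-5p had 83.8, 91.2 and 108 normalized CPM in Keluoxin libraries, against 76.3, 92.3 and 117 in model libraries. Its groups overlapped almost entirely, with a log2 fold change of 0.0039 (SE 0.12, 95% interval −0.27 to 0.27, edgeR adjusted p = 0.979). miR-153-3p had 29.6, 38.1 and 47.9 normalized CPM in Keluoxin libraries, against 35.4, 43.6 and 47.2 in model libraries. The lowest 2 of the 12 libraries were Keluoxin libraries and so was the highest, and the log2 fold change was −0.18 (SE 0.15, edgeR adjusted p = 0.398).

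miR-137-3p was scarce, with 11 to 74 reads in a Keluoxin library and 22 to 69 in a model library. It had 4.43, 7.65 and 9.81 normalized CPM in Keluoxin libraries, against 4.12, 6.49 and 9.23 in model libraries, and the groups overlapped (log2 fold change 0.20, SE 0.26, 95% interval −0.35 to 0.76, edgeR adjusted p = 0.577).

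**Figure D1:**
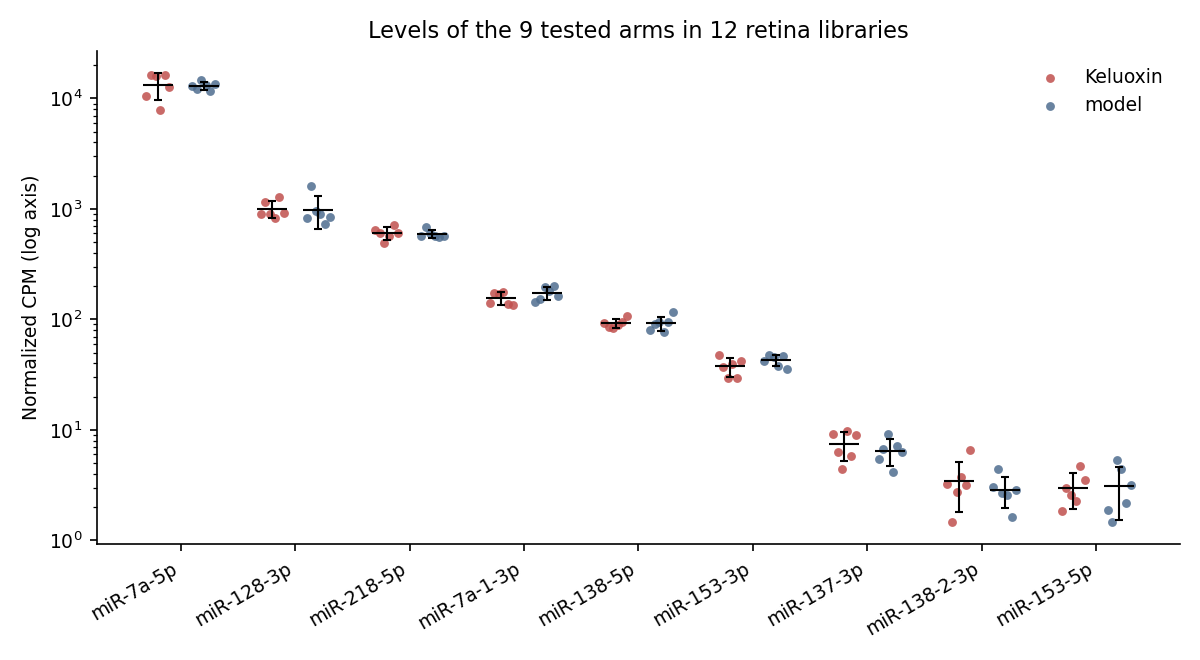
Normalized CPM (log axis) of the 9 tested arms; each point is 1 library, black bars give the mean ± SD (n = 6 a group), with Keluoxin left of model. Within each arm the groups overlap, while arms span from 13333 normalized CPM for miR-7a-5p to about 3 for miR-153-5p in Keluoxin libraries.

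Of the minor strands, the 3p strand of mir-7a-1 was the most abundant. It had 135, 156 and 178 normalized CPM in Keluoxin libraries, against 145, 172 and 199 in model libraries (log2 fold change −0.15, SE 0.12, edgeR adjusted p = 0.389). Here 3 Keluoxin libraries lay below the lowest model library and none above the highest. miR-138-2-3p averaged 3.48 ± 1.68 normalized CPM in Keluoxin and 2.87 ± 0.90 in model, and miR-153-5p 2.98 ± 1.05 in Keluoxin and 3.08 ± 1.54 in model (SD, n = 6 each). Their log2 fold changes were 0.28 (SE 0.34) and −0.093 (SE 0.35).

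None of the 9 tested arms passed the test between the groups in edgeR's quasi-likelihood test, and none had an unadjusted p under 0.05, while 17.0% of the 811 arms tested in the series were called. Of these arms 74 (9.12%) were higher and 64 (7.89%) lower in Keluoxin, against 71 higher and 106 lower with upper quartile scaling and 88 higher and 25 lower with total reads. In DESeq2, 0 of the 9 members were called too. The median absolute log2 fold change was 0.093 over the 9 members and 0.44 over all 811 arms. A p that misses the threshold does not show that levels were equal, and the intervals give the sizes still allowed. In bulk retina, fewer cells of a type and less RNA per cell cannot be told apart.

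**Figure D2:**
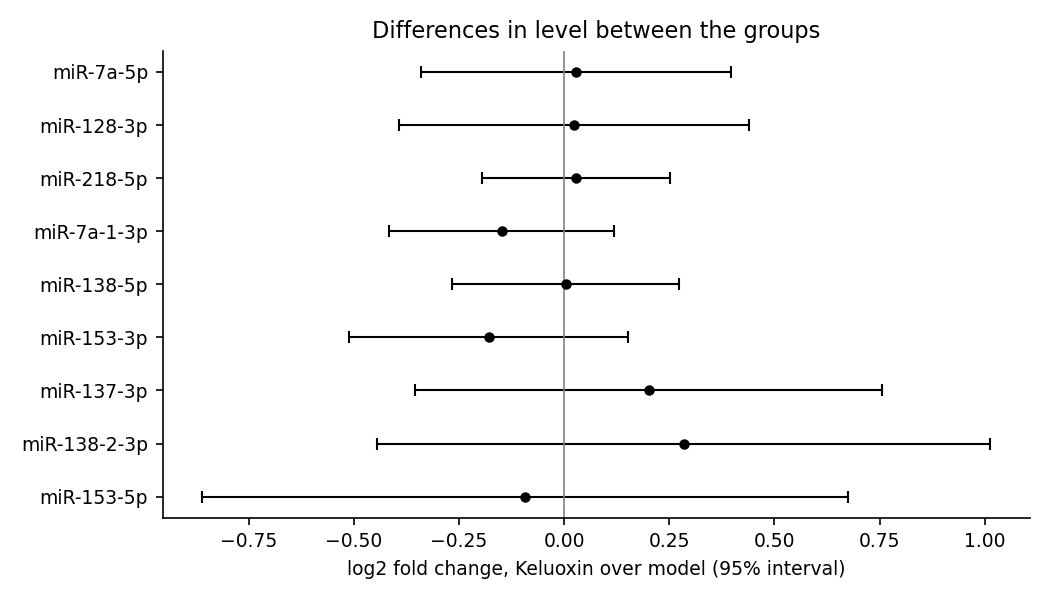
Log2 fold change of Keluoxin over model for the 9 tested arms, with 95% intervals (edgeR, 6 libraries a group). Every interval includes 0; the intervals are narrowest for miR-218-5p (−0.20 to 0.25) and widest for the scarce miR-153-5p (−0.86 to 0.67).

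The order of the levels, as reads, was miR-7a-5p, miR-128-3p, miR-218-5p, miR-7a-1-3p, miR-138-5p, miR-153-3p, miR-137-3p, miR-138-2-3p and miR-153-5p. Down to miR-137-3p, each arm's lowest library of the 12 lay above the highest library of the next arm, closest for miR-128-3p (732) above miR-218-5p (718). miR-137-3p, miR-138-2-3p and miR-153-5p overlapped their neighbours, so their order was not beyond their spread.

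Arms of several marker lists were called between the groups, at the background of 9.12% of all arms higher and 7.89% lower in Keluoxin. No list was tested as a whole, the summed levels of the groups overlapped for every list but the endothelial, and the part of these lists in the members' values was not tested. In the photoreceptor list 2 of 6 arms were lower in Keluoxin. The photoreceptor arm miR-96-5p went the other way (log2 fold change 0.29) and was not called (edgeR adjusted p = 0.0514). In the neuron list 0 of 4 arms were called. The endothelial list (mir-126a) summed to 1101 to 1417 normalized CPM in Keluoxin and 1588 to 2129 in model libraries, with 1 of 2 arms lower. The lower arm was miR-126a-3p (log2 fold change −0.63), which makes up most of the sum. The other strand, miR-126a-5p, went the other way (0.28) and was not called. The pigment epithelium and ciliary list (mir-204, mir-211) had 0 of 4 arms called, at 10399 to 12181 in Keluoxin and 9394 to 12149 in model libraries. The erythroid list summed to 87.2 to 793 normalized CPM in Keluoxin and 89.8 to 109.6 in model libraries, and 1 of its 3 tested arms was higher. The muscle list summed to 286 to 1916 in Keluoxin and 297 to 428 in model libraries, with 1 of 4 tested arms higher. The liver marker miR-122-5p, at 2.39 to 41.3 in Keluoxin and 1.18 to 4.82 in model libraries, was higher. The leukocyte list summed to 70.0 to 86.3 in Keluoxin and 70.0 to 83.9 in model libraries, with 0 of 2 tested arms called. Every precursor of these lists had reads.

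Other neuronal miRNAs were counted for comparison. From a list of 22 such precursors, 33 arms had reads and 27 were tested; 0 were higher and 6 were lower in Keluoxin, with a median log2 fold change of −0.24, against 0.023 over the 9 members and 0.037 over all arms. The background was 7.89% of 811 arms lower. This list was drawn up with earlier results of these data known, and some of its called arms share a precursor. Its counts are therefore a description, and the list was not tested as a whole. With total reads, 1 arm of the list was higher and 2 were lower (median −0.048), and with upper quartile scaling 0 were higher and 8 lower (median −0.50). Leaving out 1 library gave 2 lower arms without model replicate 3, 4 or 5 and 3 without model replicate 2 or Keluoxin replicate 1 or 6. Without model replicate 1 there were 1 higher and 7 lower arms, and without model replicate 2 there was 1 higher arm. The most abundant of the 6 was miR-129-5p, at 3493 ± 575 normalized CPM in Keluoxin and 4592 ± 300 in model (SD, n = 6 each; log2 fold change −0.39, SE 0.12, edgeR adjusted p = 0.0345). miR-330-5p (−0.68), miR-330-3p (−0.69), miR-129-1-3p (−0.58), miR-328-5p (−1.56) and miR-219a-1-3p (−1.18) were the other log2 fold changes that passed. The 3 most abundant arms of the list were miR-9-5p, miR-124-3p and miR-129-5p, and the first pair had log2 fold changes of −0.24 and −0.33 that did not pass. miR-7b-5p, with the seed of miR-7a-5p, averaged 2377 ± 621 normalized CPM in Keluoxin and 2341 ± 188 in model (SD, n = 6 each; log2 fold change 0.022, SE 0.17, edgeR adjusted p = 0.932). miR-671-5p, which can cut Cdr1as in mammalian brain, averaged 12.4 ± 3.12 normalized CPM in Keluoxin and 15.3 ± 2.37 in model, and miR-671-3p 7.28 ± 2.33 in Keluoxin and 12.4 ± 4.25 in model, neither past the threshold (edgeR adjusted p = 0.298 and 0.0811).

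For each major arm, the annotated arms that kept the steadiest ratio to it were named, by the SD of the log2 ratio over the 12 libraries among arms with a mean of at least 100 normalized CPM. miR-7a-5p was followed most closely by miR-7b-5p, with an SD of 0.079 against a median of 0.37 over 178 compared arms, and next by miR-361-3p (0.16). The arms nearest to miR-218-5p were miR-204-5p (0.13) and miR-26b-5p (0.13), and those nearest to miR-138-5p were miR-93-5p (0.12) and miR-107-3p (0.14). miR-153-3p lay nearest to miR-384-3p (0.18) and miR-182-3p (0.20), and miR-128-3p to miR-125a-5p (0.19) and let-7d-5p (0.20). For miR-137-3p the steadiest ratios were to miR-29b-3p (0.29) and miR-29a-3p (0.32), against a median of 0.50. miR-7a-5p and miR-7b-5p share 2395 reads that match both, which were divided equally between them. In all, miR-7a-5p had 812068 reads and miR-7b-5p 146126.

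The copies could be told apart by few reads. Of the reads of miR-7a-5p, 99.5% matched both copies, and of miR-218-5p 95.5% did. Of miR-128-3p, 66.5% of reads matched both copies, 17148 reads matched mir-128-1 alone and 3481 mir-128-2 alone. The difference lies behind the mature end, and these forms (capitals mark the last base, where the copies differ) show it, with the share of the arm's reads that each took.
mir-128-1 form: tcacagtgaaccggtctctttT
mir-128-2 form: tcacagtgaaccggtctctttC
mir-138-1 form: agctggtgttgtgaatcaggccgT
mir-138-2 form: agctggtgttgtgaatcaggccgA
The mir-128-1 form took 15.4% ± 2.31 of the reads of miR-128-3p in Keluoxin and 15.8% ± 0.87 in model, and the mir-128-2 form 4.25% ± 1.01 in Keluoxin and 3.55% ± 0.30 in model (SD, n = 6 each). The mir-138-1 form took 20.04% ± 2.65 of the reads of miR-138-5p in Keluoxin and 19.1% ± 2.62 in model, and the mir-138-2 form 4.11% ± 0.99 in Keluoxin and 3.88% ± 1.39 in model. A base added after cutting can have the same letter as the other copy, so these shares do not measure the copies by themselves. On the opposite strand the copies differ in sequence: mir-138-1 had 60 and mir-138-2 202 reads on the 3p arm, the reverse of the order on the 5p arm, where 1542 reads matched mir-138-1 alone and 260 mir-138-2 alone. mir-128-1 had 42 reads on its 5p arm and mir-128-2 none, and mir-218-1 had 54 reads on its 3p arm and mir-218-2 none. For mir-7a the 3p arm came almost wholly from copy 1, with 99.5% ± 0.31 of such reads in Keluoxin and 99.4% ± 0.13 in model (SD, n = 6 each; exact two-sided permutation test, p = 0.400); the other copies had too few reads for a test.

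No difference in the balance between the arms was called. The minor strand held 0.068% of the reads of mir-128, 0.14% of mir-218, 0.44% of mir-137, 1.30% of mir-7a, 4.36% of mir-138 and 6.85% of mir-153, pooled over the libraries. The log2 ratio of 5p to 3p reads averaged 6.37 ± 0.50 in Keluoxin and 6.23 ± 0.20 in model for miR-7a, 4.43 ± 0.50 in Keluoxin and 4.65 ± 0.51 in model for miR-138, and −3.65 ± 0.69 in Keluoxin and −3.88 ± 0.79 in model for miR-153 (SD, n = 6 each). None of these 3 was called with limma, at a background of 13.9% of 165 precursors, and their adjusted p lay between 0.614 and 0.718.

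The 5′ end, which sets the seed, was nearly fixed in most members. Reads that started away from the usual base were 0.079% to 1.54% of the reads in Keluoxin and 0.040% to 1.28% in model, as group means, for miR-128-3p, miR-138-5p, miR-153-3p, miR-218-5p and miR-7a-5p. miR-7a-1-3p was different, with 13.4% ± 1.59 of its reads shifted in Keluoxin and 13.5% ± 1.09 in model (SD, n = 6 each), of which most began 1 base later. Its most frequent shifted form stands below its most frequent full form, with the shared part in lower case and the extra first base in capitals.
full form: Caacaaatcacagtctgccata
shifted form: aacaaatcacagtctgccata
Of the 6 arms that had 50 or more reads in each library, 0 were called for the share of shifted starts, at a background of 3.66% of 382 arms.

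The scarce miR-137-3p had the most shifted 5′ ends of the major arms. Of its reads, 70.5% in Keluoxin libraries and 61.9% in model libraries began at the usual base, pooled over the libraries of a group. Another 12.4% in Keluoxin and 16.5% in model began 1 base later, and 15.0% in Keluoxin and 21.6% in model began 2 bases later. Starts 2 bases later had reads in 12 of 12 libraries. The forms below are the most frequent for each start, with the seed positions 2 to 8 of each read in capitals.
usual start: tTATTGCTtaagaatacgcgt
1 base later: tATTGCTTaagaatacgcgtag
2 bases later: aTTGCTTAagaatacgcgtagt
Over the 12 libraries, 152 of 452 reads (33.6%) began away from the usual base and so carried another seed than the annotated one. Its reads were too few per library for the test of start shifts.

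Reads of miR-138-5p were spread over 20 to 24 nt, with the 20-nt form at 6.99% ± 2.61 of its reads in Keluoxin and 11.1% ± 3.43 in model (SD, n = 6 each). Its mean read length was 22.2, 22.5 and 22.8 nt (lowest, median, highest) in Keluoxin libraries, against 21.3, 22.1 and 22.5 nt in model libraries, and 3 Keluoxin libraries lay above every model library. The difference of 0.47 nt (SE 0.20) had an unadjusted limma p of 0.0362 and an adjusted p of 0.136. The other 5 arms differed by −0.059 to 0.072 nt, and 0 of the 6 were called at a background of 8.38% of 382 arms. For miR-7a-5p, the difference of 0.072 nt became 0.11 nt and passed (limma adjusted p = 0.0395) without Keluoxin replicate 4.

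Differences between reads and precursor were called in part of the members. A read was counted as mismatched when it differed from its precursor by a base, or by an insertion or deletion; the deposited alignments allow 1 such difference a read. The share of mismatched reads was higher in Keluoxin in 4 of the 6 arms tested, miR-7a-5p, miR-7a-1-3p, miR-138-5p and miR-218-5p, at a background of 59.4% of 382 arms that were higher in Keluoxin. A share near that background is not a result about these miRNAs: the median difference was 7.27 percentage points over the 6 members and 6.06 over all 382 arms. The median share over all arms stood at 45.7% to 52.0% in Keluoxin libraries and 40.0% to 45.6% in model libraries, so that every Keluoxin library lay above every model one. Model replicate 6, the model library with the fewest counted reads (3819945), had the highest of the model values, and Keluoxin replicate 5, with the fewest of all, had 48.8%, below 4 of the other Keluoxin libraries; the part of depth was not tested.

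For miR-7a-5p the share of mismatched reads was 40.1%, 46.0% and 47.4% (lowest, median, highest) in Keluoxin libraries, against 31.4%, 33.4% and 38.5% in model libraries. The groups did not overlap, and the means of 44.8% ± 2.90 in Keluoxin and 34.2% ± 2.79 in model differed by 10.6 percentage points (SD, n = 6 each; SE 1.58, limma adjusted p = 0.000213). For miR-7a-1-3p it was 42.0%, 45.1% and 51.2% in Keluoxin libraries, against 30.3%, 33.9% and 35.0% in model libraries, a difference of 12.7 percentage points (SE 1.58, limma adjusted p = 7.32e-05), again without overlap.

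For miR-138-5p the share was 39.3%, 46.1% and 48.4% in Keluoxin libraries, against 31.2%, 35.0% and 39.1% in model libraries, a difference of 10.2 percentage points (SE 1.82, limma adjusted p = 0.000621). Its groups did not overlap, but Keluoxin replicate 4, at 39.3%, stood close to model replicates 1 and 6, both at 39.1%. Groups did not overlap upward in 29.6% of the 382 arms. For miR-218-5p it was 38.2%, 44.1% and 45.3% in Keluoxin libraries, against 37.7%, 38.9% and 40.5% in model libraries, with 5 of 6 Keluoxin libraries above every model library (difference 4.32 percentage points, SE 1.13, limma adjusted p = 0.00580).

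miR-128-3p and miR-153-3p did not pass. miR-128-3p had 42.3%, 44.2% and 47.6% mismatched reads in Keluoxin libraries, against 41.5%, 43.2% and 45.0% in model libraries, a difference of 1.22 percentage points (SE 1.06, 95% interval −1.10 to 3.54, limma adjusted p = 0.341). miR-153-3p had 35.6%, 44.4% and 47.5% in Keluoxin libraries, against 35.2%, 39.5% and 45.2% in model libraries (difference 3.38, SE 2.25, limma adjusted p = 0.215). Without Keluoxin replicate 3, its lowest, the difference for miR-153-3p was 4.89 and passed (limma adjusted p = 0.0471). Whether the arms differed from each other in this response was not tested.

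**Figure D3:**
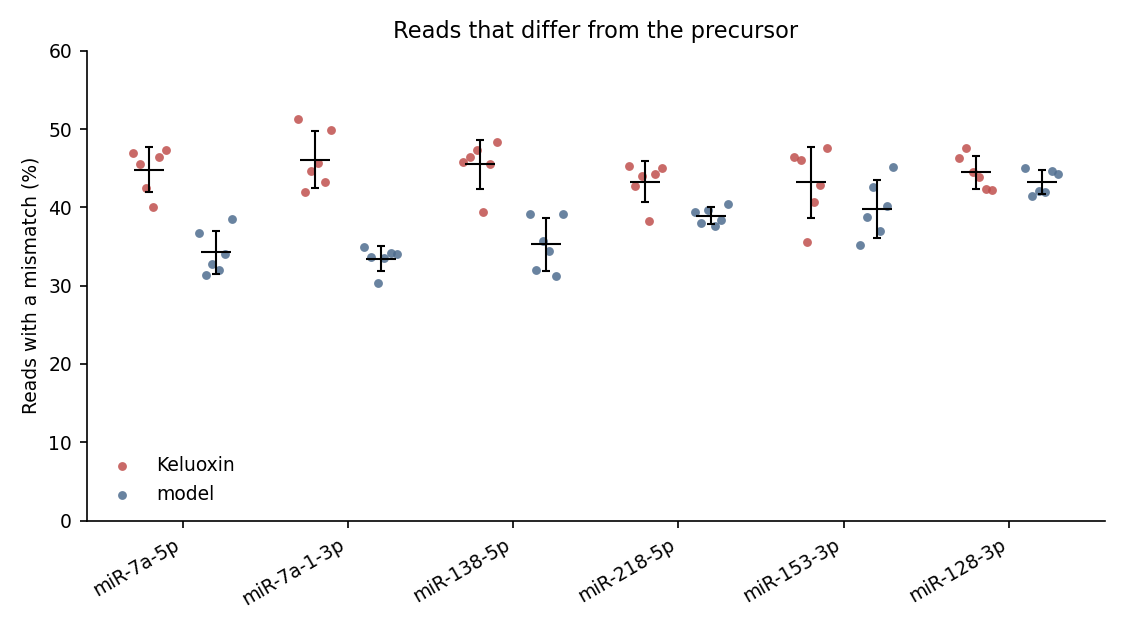
Percent of reads that differ from the precursor, for 6 arms; each point is 1 library and black bars give the mean ± SD (n = 6 a group), with Keluoxin left of model. The groups do not overlap for miR-7a-5p, miR-7a-1-3p and miR-138-5p, and lie at similar levels (44.5% in Keluoxin and 43.2% in model, as means) for miR-128-3p.

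Mismatches were then counted by place. In the last 3 bases, the same 4 arms were higher in Keluoxin (background 59.7% of 382 arms), by 10.3 percentage points for miR-7a-5p, 13.0 for miR-7a-1-3p, 10.7 for miR-138-5p and 4.12 for miR-218-5p (limma adjusted p between 0.000227 and 0.0215). This count too is near the background and not a result about these miRNAs. miR-153-3p passed without Keluoxin replicate 3 (5.65 percentage points, limma adjusted p = 0.0155). Before the last 3 bases, 0 of the 6 arms were called (background 3.93% of 382 arms), and the differences lay between −0.47 and 1.16 percentage points. At the last base of miR-7a-5p, 30.4% ± 4.18 of reads were mismatched in Keluoxin and 24.5% ± 2.00 in model (SD, n = 6 each). The groups overlapped there. At the base before it, the shares were 5.97% ± 0.95 in Keluoxin and 2.58% ± 0.78 in model, without overlap. At 2 bases before the last base they were 2.04% ± 0.717 in Keluoxin and 0.956% ± 0.233 in model, also without overlap. No single place was tested. At 4 bases before the last base of miR-7a-5p the shares were 0.686% ± 0.294 in Keluoxin and 0.300% ± 0.0556 in model. At 3 bases before that of miR-128-3p they were 1.27% ± 0.508 in Keluoxin and 0.582% ± 0.0744 in model (SD, n = 6 each). Both of these places were picked because the groups did not overlap there. At all other places before the last 3 bases the groups overlapped. How often single places lack overlap was not counted over all arms, so no place without overlap is a result about the members. In the seed, mismatches were few: 1.89% ± 0.52 of the reads of miR-7a-5p in Keluoxin and 2.06% ± 0.14 in model.

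**Figure D4:**
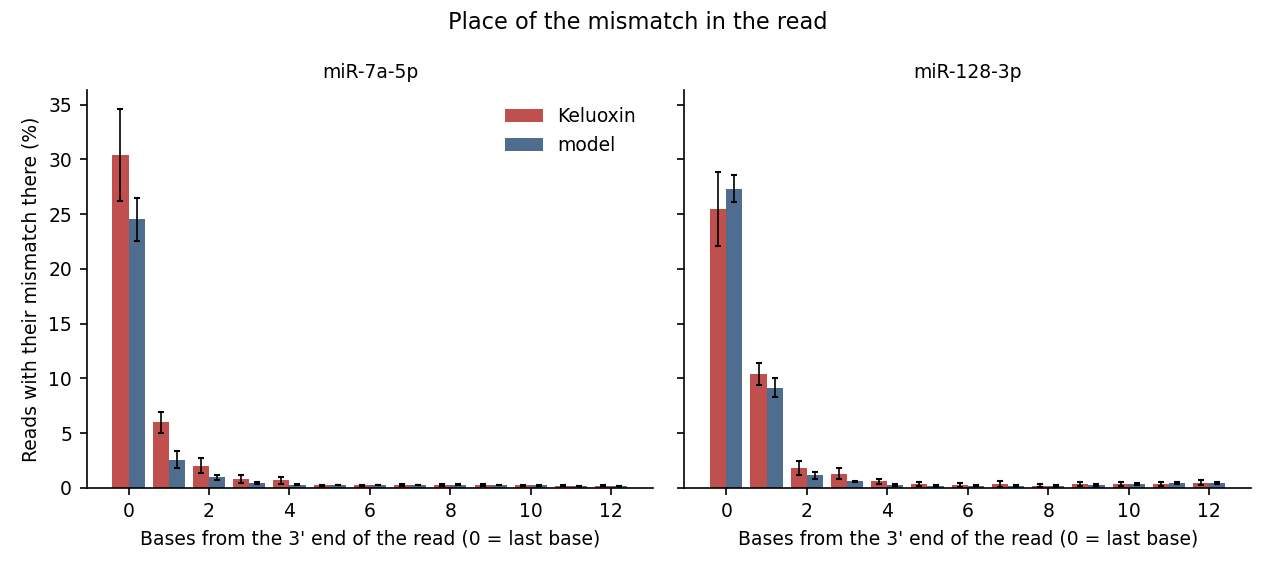
Percent of reads of miR-7a-5p and miR-128-3p whose mismatch lies at each distance from the 3′ end (0 is the last base); bars are means and error bars SD (n = 6 a group), with Keluoxin left of model. In miR-7a-5p the Keluoxin bar is higher at the last base (30.4% in Keluoxin, 24.5% in model), where the groups overlap. It is also higher at the base before it (5.97% in Keluoxin, 2.58% in model), where they do not. In miR-128-3p the groups overlap at the last base (25.5% in Keluoxin, 27.3% in model) and at the base before it (10.4% in Keluoxin, 9.16% in model).

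Forms of miR-7a-5p are shown because they hold these ends. They are printed as read, with a base that differs from the precursor in capitals and its substitution counted from 1 at the read's 5′ end (base of mir-7a-1, position, base of the read).
no difference, 24 nt: tggaagactagtgattttgttgtt
no difference, 22 nt: tggaagactagtgattttgttg
T23C, 23 nt: tggaagactagtgattttgttgC
T23G, 23 nt: tggaagactagtgattttgttgG
T23A, 23 nt: tggaagactagtgattttgttgA
The 24-nt form without a difference took 20.2% to 24.1% of the reads in Keluoxin libraries and 23.1% to 26.4% in model libraries. The 22-nt form without a difference took 4.71% to 6.56% in Keluoxin and 9.53% to 12.01% in model libraries, without overlap. The next longer form ending in C (T23C) averaged 5.99% ± 0.82 in Keluoxin and 3.93% ± 0.65 in model, that ending in G (T23G) 3.40% ± 0.69 in Keluoxin and 1.98% ± 0.27 in model, and that ending in A (T23A) 2.95% ± 0.58 in Keluoxin and 3.37% ± 0.16 in model (SD, n = 6 each). A T at that place has the letter of the precursor and is not counted as a difference. Single forms without overlap also occurred in miR-128-3p, miR-218-5p and miR-7a-1-3p. Their share over all arms was not counted, so the 22-nt form is not a result particular to miR-7a-5p.

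By the letter of the mismatched last base, C was higher in Keluoxin in 4 of the 6 arms (background 52.6% of 382 arms), G in 3 (background 46.1%), and A was lower in 2 (background 15.2%), while T changed in none (background 24.9%, either direction). The counts for C and G are near these backgrounds and are not a result about these miRNAs. Without a single Keluoxin library, A in miR-7a-5p (without replicate 1, adjusted p = 0.0131) and T in miR-218-5p (replicate 5, 0.0189) and miR-7a-1-3p (replicate 2, 0.0196) passed too. Reads ending in a mismatched C made up 13.95% ± 2.60 of miR-7a-5p in Keluoxin and 9.45% ± 1.68 in model, and 11.7% ± 1.79 of miR-218-5p in Keluoxin and 7.91% ± 1.33 in model (SD, n = 6 each). The other arms with more C were miR-128-3p, by 2.57 percentage points, and miR-7a-1-3p, by 2.71. For G, miR-218-5p had 4.35% to 7.84% in Keluoxin libraries and 2.83% to 3.59% in model libraries, without overlap, and miR-7a-5p and miR-7a-1-3p were higher by 2.64 and 3.08 percentage points. How often groups lack overlap for a letter was not counted over all arms, so lack of overlap here and below is no result about the members. The G result of miR-7a-1-3p had a limma adjusted p of 0.0301. It missed the threshold without any of 8 single libraries (Keluoxin replicates 1, 2, 3 and 5 and model replicates 2, 3, 4 and 6), with differences of 2.63 to 3.06 percentage points and adjusted p between 0.0514 and 0.0646.

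miR-128-3p, whose total of mismatched reads did not differ past the threshold, passed for a mismatched last A and C, at the backgrounds given above. A mismatched last A made up 7.52% to 10.6% of its reads in Keluoxin libraries and 11.2% to 13.8% in model libraries, without overlap (difference −3.37 percentage points, SE 0.62, limma adjusted p = 0.00480), while a mismatched C was higher (8.58% ± 0.81 in Keluoxin and 6.01% ± 0.81 in model; SD, n = 6 each; limma adjusted p = 0.00264). The forms that carry this, T22A and T21C against the sequence of mir-128-1, are shown with the differing base in capitals.
T22A: tcacagtgaaccggtctctttA
T21C: tcacagtgaaccggtctcttC
T22A took 4.81% ± 0.79 of the reads in Keluoxin and 7.65% ± 0.61 in model, and T21C took 6.67% ± 0.96 in Keluoxin and 4.61% ± 0.69 in model (SD, n = 6 each). In miR-218-5p a mismatched last A was lower as well, at 7.59% to 13.8% in Keluoxin libraries and 14.1% to 15.9% in model libraries (difference −3.61 percentage points, limma adjusted p = 0.0227). Without model replicate 3 the difference was −3.39 percentage points and its limma adjusted p 0.0503.

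In miR-138-5p, neither letter passed, with a mismatched C at 7.96% ± 3.37 in Keluoxin and 4.41% ± 1.19 in model (SD, n = 6 each; limma adjusted p = 0.0550) and G at 4.97% ± 2.08 in Keluoxin and 2.56% ± 1.18 in model (adjusted p = 0.0564). C passed without model replicate 6 (adjusted p = 0.0431), Keluoxin replicate 2 (0.0180) or Keluoxin replicate 4 (0.0243), and G without Keluoxin replicate 4 (0.00921). In miR-153-3p a mismatched last T stood at 12.9% ± 4.26 in Keluoxin and 18.3% ± 2.24 in model, which did not pass (adjusted p = 0.0607) but did without Keluoxin replicate 1 (0.0257) or 2 (0.0361). Such a letter is visible only where it differs from the precursor, so the letters of different arms are not set against each other.

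**Figure D5:**
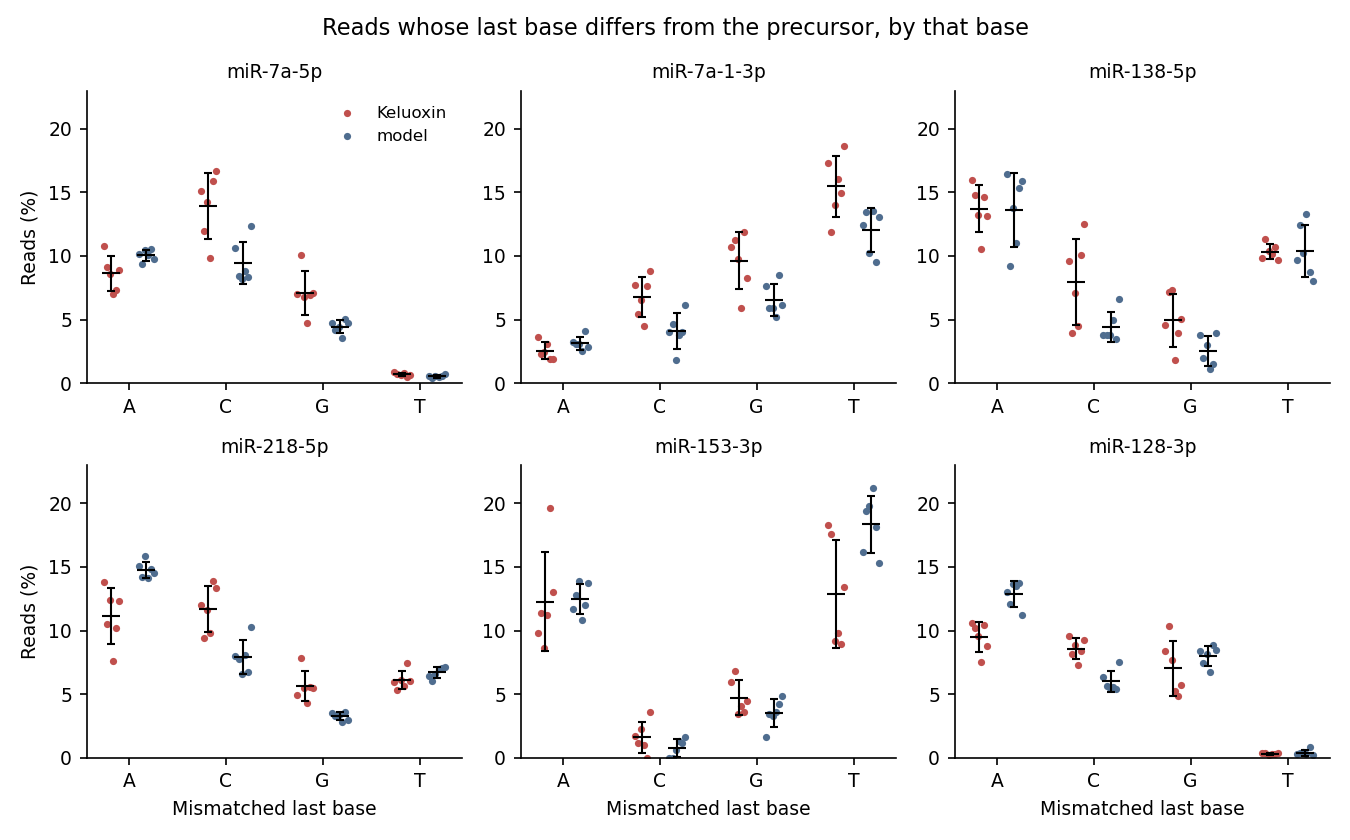
Percent of reads whose last base differs from the precursor, by the base read there, for 6 arms; each point is 1 library and black bars give the mean ± SD (n = 6 a group), with Keluoxin left of model. C stands higher in Keluoxin in miR-7a-5p (13.95% in Keluoxin, 9.45% in model) and miR-218-5p (11.7% in Keluoxin, 7.91% in model), and A lower in miR-128-3p (9.52% in Keluoxin, 12.9% in model) and miR-218-5p (11.1% in Keluoxin, 14.8% in model).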

How the data were processed

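Small RNA was sequenced from 12 retina samples, 6 Keluoxin and 6 model, in NEBNext small RNA libraries from 1 µg of total RNA with inserts of 15 to 35 nt, per the labels' protocols. Tools named, without version or role, per the submitters' processing notes are Bowtie, Novoalign, cutadapt and bcl2fastq. The submitters' genome build and miRBase release: not given in the sources used here. The deposited tables hold raw whole read counts for each distinct sequence on each precursor; the fewest reads of a sequence are 2, and lengths run between 15 and 51 nt. Other deposited values (read lengths, positions on the precursor and number of differences) carry no normalization, per the file headers. Depth was 1933375 to 7892147 counted reads a library, PCR reads without molecular identifiers, so intervals cover counting error and the spread between libraries only.

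Where the authors had divided a count among precursors, the undivided reads kept in the tag name were used and counted once. Reads were assigned to 5p or 3p by the side of the precursor's middle, copies that share over 50% of the smaller copy's reads were joined, and reads matching 2 different arms were divided equally. Levels were tested with edgeR 4.0.16 (R 4.3.3; TMM scaling, its filter on low counts, quasi-likelihood test) on 811 arms. limma 3.58.1 tested the log2 ratio of 5p to 3p reads (pseudocount 0.5; 165 precursors whose arms each had 10 or more reads in 6 libraries). It also tested read length, start shifts and mismatch shares (382 arms, each with 50 or more reads in all 12 libraries). All p-values are two-sided. Those called adjusted are Benjamini-Hochberg adjusted over all features of the test, with calls at 0.05, and the p for copy shares is unadjusted. Copy shares were compared by exact two-sided permutation over 924 assignments, with a smallest p of 0.00216, for pairs with at least 10 such reads in every library. Python 3.11.15, pandas 2.3.3, NumPy 2.4.6 and SciPy 1.17.1 were used, and each fit was tested on simulated data.

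Normalized CPM are reads scaled to the TMM-adjusted library size. Sequences and names were matched to RefSeq (GRCm38.p6) and host genes to GENCODE M21. Arms of the members that passed the filter were all named, with the 2 nearest arms of each major arm; of the other neuronal list, the called arms, the 3 most abundant, miR-7b and miR-671. The members and lists were chosen with earlier results of these data known. Shares by place and letter of the mismatch, and their alternatives, were added after the data were seen. Whether libraries within a group come from different mice is not stated, so the p-values reflect only how these samples vary, which may be technical. Alternatives were other scalings, no filter, DESeq2 1.42.0, annotated precursors only, reads of 18 to 26 nt, reads without mismatch, the divided counts, other minimum reads or pseudocounts, each library left out and a replicate block. No 2 libraries were copies: the closest pair had a chi-square per degree of freedom of 70.6.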

Additional observations from a re-analysis of the deposited data

Results flagged for a closer look

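In 13 of 134 groups of 6 libraries checked over the members' measures, 1 library stood far from the other 5 (by Dixon's test at 95%); about 1 in 20 groups would be picked out by chance. Measures of 1 arm share reads, so these are not separate findings. Model replicate 2 was high for miR-128-3p (1619 normalized CPM, the other model libraries 732 to 955) and for miR-218-5p (683, the others 561 to 606). In it, mismatches before the last 3 bases of miR-128-3p were also high (6.92%, the others 5.12% to 5.61%).

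Keluoxin replicate 4 was low in 4 measures. Mismatched reads stood at 39.3% for miR-138-5p (the other Keluoxin libraries 45.5% to 48.4%) and 38.2% for miR-218-5p (42.8% to 45.3%), mismatches in the last 3 bases of miR-138-5p at 37.3% (44.5% to 47.7%), and the mean length of miR-218-5p at 21.2 nt (21.3 to 21.4 nt). Model replicate 3 was low for miR-7a-1-3p, with 30.3% mismatched reads (33.6% to 35.0% in the other model libraries) and 26.8% in the last 3 bases (31.1% to 33.3%).

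The other 4 were single values. Keluoxin replicate 3 had 4.60% of miR-153-3p reads mismatched before the last 3 bases (the others 0% to 1.14%), Keluoxin replicate 2 had 7.84% of miR-218-5p reads with a mismatched last G (4.35% to 5.601%), Keluoxin replicate 5 had 7.44% with a mismatched last T (5.36% to 6.10%), and model replicate 5 had 0.870% of miR-128-3p reads with a mismatched last T (0.234% to 0.420%).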

How the results depend on the processing

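No level of the 9 arms was called under any alternative, so their directions, near 0, carry no call. Over all arms, the median log2 fold change was 0.037 with TMM, −0.22 with upper quartile scaling and 0.22 with total reads, and with it moved the signs of the members. Upper quartile scaling gave −0.23 for miR-128-3p, −0.088 for miR-137-3p, −0.26 for miR-138-5p, −0.24 for miR-218-5p and −0.24 for miR-7a-5p. For miR-128-3p, miR-138-5p, miR-218-5p and miR-7a-5p in that order, RLE size factors gave −0.015, −0.038, −0.012 and −0.0085, no filter −0.038, −0.054, −0.030 and −0.027, and DESeq2 −0.0093, −0.031, −0.0084 and −0.0035. Total reads gave 0.017 for miR-153-3p, 0.090 for miR-153-5p and 0.041 for miR-7a-1-3p. Reads with no mismatch gave −0.011 for miR-138-5p and −0.0045 for miR-7a-5p. Leaving out each library gave −0.055 to 0.22 for miR-128-3p, −0.0056 to 0.45 for miR-138-2-3p, −0.059 to 0.085 for miR-138-5p, −0.24 to 0.14 for miR-153-5p, −0.029 to 0.067 for miR-218-5p and −0.12 to 0.091 for miR-7a-5p. The cause was not tested.

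Arms called for level were 238 with DESeq2, 68 with annotated precursors only (fewer arms tested), and 72 (without model replicate 4) to 245 (without model replicate 1) leaving out each library; they were 82 without model replicate 3 and 91 without model replicate 5. Leaving out each library gave 10 to 27 calls for the 5p to 3p ratio (23 with all), 15 to 74 for length (32), 6 to 24 for shifted starts (14), 224 to 249 for mismatches (237), 213 to 265 for the last 3 bases, 9 to 24 before them (15), and, for a mismatched last base, 43 to 103 for A (64), at least 171 for C (202), 117 to 213 for G (176) and 73 to 93 for T (95). Of the other neuronal arms, 0 were higher and 6 lower with the main settings, and 0 were higher and 2 lower with no filter. Annotated precursors only gave 2 higher and 3 lower, and reads with no mismatch 1 higher and 3 lower. DESeq2 gave 2 higher and 7 lower, and reads of 18 to 26 nt 1 higher and 4 lower. Length gave 50 calls with reads of 18 to 26 nt and 14 with at least 200 reads, which left 6 calls before the last 3 bases. The mismatch calls of miR-7a-5p, miR-7a-1-3p, miR-138-5p and miR-218-5p held under every alternative that gave them a value.

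Uncalled differences also changed sign. With reads of 18 to 26 nt, shifted starts differed by 0 for miR-138-5p and −0.040 percentage points for miR-218-5p, the last 3 bases by −0.077 for miR-128-3p, and a last A and T by −0.37 and 0.38 for miR-138-5p. Leaving out each library, shifted starts differed by −0.038 to 0.069 (miR-138-5p), −0.15 to 0.67 (miR-153-3p) and −0.49 to 0.41 (miR-7a-1-3p), length by −0.028 to 0.013 nt (miR-7a-1-3p), and the last 3 bases by −0.55 to 0.85 (miR-128-3p). Bases before them differed by −0.75 to 0.25 (miR-153-3p), −0.068 to 0.50 (miR-218-5p), −0.62 to 0.045 (miR-7a-1-3p) and −0.0088 to 0.54 (miR-7a-5p), a last A by −0.76 to 0.75 (miR-138-5p) and −1.70 to 0.51 (miR-153-3p), and a last T by −0.51 to 0.52 (miR-138-5p). The copy share of mir-7a differed by 0.030 to 0.20 percentage points. With reads of 18 to 26 nt, a last G of miR-138-5p passed (limma adjusted p = 0.0420), and with at least 200 reads a last T of miR-7a-1-3p did (0.0453).

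The labels pair no libraries across groups. Deviations of same-numbered libraries correlated at 0.0473 to 0.252, and 2 of 12 libraries correlated best with their own number. With a replicate block, 134 arms were called for level, 12 precursors for the ratio, 52 arms for length and 4 for shifted starts; the level of miR-7a-5p differed by −0.017, and a last C of miR-138-5p passed (limma adjusted p = 0.0494). Depth limits miR-137-3p, miR-138-2-3p and miR-153-5p most, and libraries with fewer than 50 reads kept them out of the tests on read ends.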
